A study of Homo sapiens with 9 samples.

Results

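BON-1 is an established human cell line grown from a pancreatic neuroendocrine tumour, and 3 arrays of BON-1 cells with RABL6A knockdown are described here against 3 arrays of cells with control vector. The 3 knockdown arrays are shRNA 2 replicate 1, shRNA 1 replicate 2 and shRNA 2 replicate 3, out of 6 knockdown arrays and 9 arrays in all. They were chosen by the correlation of their measured expression values over all genes, each correlating better with the other 2 than with any remaining array, although 1 of them carries the other hairpin's label, and they are called the like-profile arrays below. The cells of every group carried the pLKO.1 lentiviral vector, with no hairpin against RABL6A named for the control and with 1 of 2 short hairpin RNAs (shRNA 1, shRNA 2) against RABL6A in the knockdown groups. Cells of 3 sets made separately are named in the labels, which leave unsaid whether each set was transduced anew, so p-values here cover only sample-to-sample spread. All groups are 1 cell line in culture, with no untransduced cells among the arrays analysed here. Total RNA was hybridised to Illumina HumanHT-12 v4 BeadChips, which read each transcript with 1 or a few probes, and the study asked about passage from G1 into S phase and proliferation.

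RABL6A is the protein made from RABL6, which belongs to the RAB-like GTPase genes. BON-1 cells make serotonin and the granins that neuroendocrine cells pack into secretory vesicles. In dividing cells E2F factors, held back by the retinoblastoma protein, switch on genes for DNA replication. YAP and its relative TAZ act with TEAD factors at promoters of genes such as CCN1, CCN2 and ANKRD1. Plasma proteins such as transthyretin and alpha-fetoprotein are made mainly by liver cells and related cells of gut origin.

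The knockdown labels of the 6 arrays were compared with their profiles before any result was drawn from them. Over 12498 genes the 3 like-profile arrays correlated with each other at Pearson's r of 0.988 to 0.994, and the other 3 knockdown arrays at 0.988 to 0.995. Between these sets r was 0.933 to 0.956, and between the like-profile arrays and vector it was 0.948 to 0.972. Each set thus mixes both hairpin labels, and shRNA 1 replicate 2 and shRNA 2 replicate 2 go against theirs. Because all genes entered the choice of arrays, the difference of the like-profile arrays from vector is given as a description with no test, and their replicate SDs are narrowed by the choice. Tests come only from the labelled groups, as a limma fit to all 9 arrays of both shRNAs minus vector, with Benjamini-Hochberg adjustment over all genes. In the labelled comparison of shRNA 2 with shRNA 1 no gene passed (0 genes, with 96 at an unadjusted p under 0.05 in limma). Both labels hold arrays of each set, so this comparison does not decide whether the hairpins differ. A gap between the sets also widens the spread within each labelled group, and genes with such a gap are less easily called.

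Between 41.4% and 44.9% of the 47231 probes were detected on each array, and precision is limited by how many arrays there are. Of 9 BON-1 marker genes with a probe all 9 were detected on all like-profile arrays, and their summed linear level was 65500 to 68800 there and 75700 to 77600 with vector. Fibroblast markers summed to 261 to 273 against 266 to 282, with COL3A1, DCN, LUM and THY1 undetected. Leukocyte markers summed to 262 to 291 against 262 to 285, with PTPRC, CD3E, CD3D and TYROBP undetected. Endothelial markers summed to 323 to 338 against 325 to 346, with PECAM1, CDH5 and ERG undetected. Within that sum KDR read 6.19, 6.12 and 6.04 against 5.12, 4.98 and 5.43 and CLDN5 4.89, 4.65 and 5.11 against 5.92, 5.85 and 5.94, and KDR rose by 1.00 over all 6 knockdown arrays (limma adjusted p = 0.00471). Markers of HEK293T, the line in which lentivirus is packaged, summed to 1060 to 1270 against 894 to 939, and of 8 with a probe LIN28B, HOXD13 and LHX1 were undetected on all arrays while NEFM and NEFL carried the sum. Acinar markers summed to 474 to 637 against 875 to 943, which followed PRSS1 (8.13, 7.89 and 8.61 against 9.28, 9.39 and 9.45 on the log2 scale), a trypsinogen gene with close copies, with CPA1, CTRB1, PNLIP and REG1A undetected. The part of the HEK293T and acinar markers in the results was not tested. In bulk RNA, fewer cells of a type and less RNA per cell cannot be told apart.

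Levels are log2 of background-corrected, quantile-normalized intensity. Values of the like-profile arrays are given in the order shRNA 2 replicate 1, shRNA 1 replicate 2 and shRNA 2 replicate 3, and values of the other arrays in the order of replicates. A difference is the mean of the 3 like-profile arrays minus the mean of the 3 vector arrays on the log2 scale.

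RABL6, the targeted gene, lay below the vector range on all 6 knockdown arrays. Its probe read 7.57, 7.73 and 7.82 with vector and 5.67, 5.98 and 5.69 on the like-profile arrays. The groups did not overlap, and the other 3 knockdown arrays read 6.01, 5.69 and 5.22, so RABL6 did not set the knockdown arrays apart from each other. The means were 7.70 ± 0.13 (SD, n = 3) with vector and 5.78 ± 0.18 (SD, n = 3) on the like-profile arrays, a difference of -1.92, which leaves 26.4% of the vector level. Over all 6 knockdown arrays RABL6 fell by 1.99 (log2, SE 0.19, limma adjusted p = 0.0014), with a two-sided exact permutation p of 0.0119, the smallest that 84 splits of 6 against 3 arrays allow. Raw probe signals were 147, 171 and 151 against 295 to 341.

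Across the 12498 genes, 1165 differed at least 2-fold from vector with all 3 like-profile arrays on 1 side of all 3 vector arrays, which is 9.32% of genes. Of these 536 were higher (4.29%) and 629 were lower (5.03%). The higher genes made up 46% of them, and 31.2% with median centring instead of quantiles. At any size 7152 genes (57.2%, 28.7% higher and 28.6% lower) did not overlap. The genes at the threshold were HIF1AN at 1.0001 inside and SLC39A9 at 0.9999 outside on the higher side, and CD163L1 at -1.0003 inside and HAGH at -0.9995 outside on the lower side. The labelled test of both shRNAs called 2078 genes (16.6%), 1067 higher (8.54%) and 1011 lower (8.09%). For shRNA 2 alone by label it called 1085 (8.68%), 575 higher (4.6%) and 510 lower (4.08%). Leaving out vector replicate 1, 2 or 3 reduced the calls for both shRNAs to 550, 489 and 509. Of the genes named below as called, CDC45, DHRS2, DISP2, DLGAP5, GTSE1, HS6ST2, HSD17B2, ITGB3BP, KIF18A, KIFC1, MYB, MYC, PLGLB1, SCG5, SSTR2, SYT11, TESC, TMEM97, VSIR and VTN lost the call without at least 1 of these vector arrays, with limma adjusted p up to 0.161. With the replicate number as a block the calls were 1105 for both shRNAs and 282 for shRNA 2, and DISP2, HSD17B2, ITGB3BP, KIF18A, PLGLB1, TMEM97 and VTN lost theirs, with limma adjusted p up to 0.117. Of the 536 higher genes 273 (50.9%) were called by that test, and of the 629 lower genes 317 (50.4%). On the other 3 knockdown arrays 1663 genes (13.3%) differed from the same vector arrays by this rule.

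**Figure D1:**
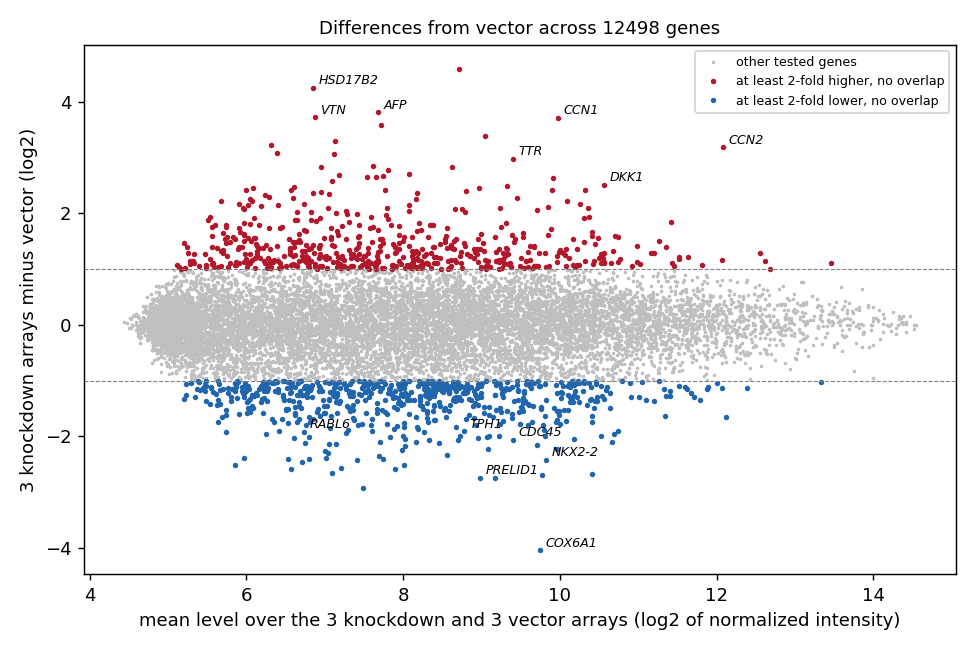
The difference of the 3 like-profile arrays from vector (vertical axis, log2) is plotted for 12498 genes against the mean level over those 6 arrays (horizontal axis, log2 of normalized intensity). The 536 genes at least 2-fold higher and the 629 at least 2-fold lower without overlap are coloured, and dashed lines mark a 2-fold difference.

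The like-profile arrays were not equally far from vector. Among the 1165 genes, shRNA 2 replicate 3 was the array closest to vector in 977 genes, shRNA 1 replicate 2 in 121 and shRNA 2 replicate 1 in 67. The median difference in the higher genes was 1.45, 1.41 and 1.10 on the 3 arrays, and in the lower genes -1.44, -1.39 and -1.04. Per gene the median SD was 0.158 over the like-profile arrays, 0.108 over the vector arrays and 0.144 over the other knockdown arrays.

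The 4 promoters below belong to genes of the groups described next and are shown because their letters can be set beside the array values. Each line runs 5′ to 3′ along the gene, from 250 bases before to 50 bases after the start of the transcript, as listed by RefSeq for GRCh38.p14. In CCN2 (chr6:131951323-131951622, minus strand) and ANKRD1 (chr10:90921038-90921337, minus strand) capitals mark the TEAD-type letters CATTCC or GGAATG. In E2F2 (chr1:23531184-23531483, minus strand) and CDC25A (chr3:48188368-48188667, minus strand) capitals mark the E2F-type letters TTTCCCGC or TTTGGCGC or their reverse complements GCGGGAAA and GCGCCAAA.
CCN2: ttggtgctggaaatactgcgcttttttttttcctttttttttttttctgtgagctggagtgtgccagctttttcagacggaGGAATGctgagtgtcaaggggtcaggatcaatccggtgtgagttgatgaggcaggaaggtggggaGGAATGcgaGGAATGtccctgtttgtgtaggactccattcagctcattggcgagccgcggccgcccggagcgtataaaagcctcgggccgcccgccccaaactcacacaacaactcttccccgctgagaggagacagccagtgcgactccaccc
ANKRD1: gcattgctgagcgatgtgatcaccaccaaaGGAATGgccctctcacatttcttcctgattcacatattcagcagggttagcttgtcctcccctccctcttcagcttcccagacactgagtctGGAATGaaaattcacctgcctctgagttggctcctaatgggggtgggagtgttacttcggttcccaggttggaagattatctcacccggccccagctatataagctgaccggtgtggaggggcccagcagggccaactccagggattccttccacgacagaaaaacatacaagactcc
E2F2: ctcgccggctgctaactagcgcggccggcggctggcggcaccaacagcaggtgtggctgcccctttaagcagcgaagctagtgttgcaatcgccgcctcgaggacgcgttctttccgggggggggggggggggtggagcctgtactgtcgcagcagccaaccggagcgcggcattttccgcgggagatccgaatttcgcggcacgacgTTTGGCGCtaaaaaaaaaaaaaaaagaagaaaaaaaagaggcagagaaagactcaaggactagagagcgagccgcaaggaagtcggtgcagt
CDC25A: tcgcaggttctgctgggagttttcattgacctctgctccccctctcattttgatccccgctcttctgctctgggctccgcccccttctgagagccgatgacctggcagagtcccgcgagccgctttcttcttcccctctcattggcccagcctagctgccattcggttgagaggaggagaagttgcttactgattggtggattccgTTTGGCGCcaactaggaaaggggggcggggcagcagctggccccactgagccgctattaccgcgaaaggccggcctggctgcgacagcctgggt

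The TEAD-type letters stood 169, 104 and 95 bases before the start in CCN2 and 220 and 128 bases before it in ANKRD1. The E2F-type letters stood 42 bases before the start in E2F2 and 44 bases before it in CDC25A. CDC45 and CHAF1A, described below, were searched too and held 0 matches in their windows, so they are not shown. Both strands were searched, 1 promoter per gene was used, and TTTGGCGC can overlap its own reverse complement because both hold GCGC. Among 10045 tested genes with a listed promoter 10.6% held the TEAD-type letters and 3.54% the E2F-type letters, and among all 27305 listed promoters the shares were 14% and 2.31%. Of the 29 tested YAP/TEAD and TGF-beta genes 24 had a listed promoter and 7 (29.2%) held the TEAD-type letters. Of the 57 tested G1/S and DNA replication genes 49 had a listed promoter and 21 (42.9%) held the E2F-type letters, as did 4 of 58 (6.9%) for G2/M and mitosis. A match is a description of letters, and no binding was measured.

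Genes of the YAP/TEAD and TGF-beta target list were mostly higher on the like-profile arrays. Of 29 tested genes 12 were at least 2-fold higher and 1 lower, against 4.29% and 5.03% of all genes, and the list's median difference was 0.51 against 0.00 over all genes. The labelled test called 4 higher and 1 lower of the 29, against 8.54% and 8.09% of all genes. Without shRNA 1 replicate 2 and shRNA 2 replicate 2, 7 arrays remain, and the fit to them called 41.2% of all genes (20.7% higher and 20.5% lower). Those 2 arrays were left out on the same correlations that chose the like-profile arrays, so counts on 7 arrays are descriptions and no test. For this list they were 13 higher and 3 lower. The list's median on the 3 arrays was 0.59, 0.59 and 0.58, and its median difference on the other knockdown arrays was 0.03. The 12 genes were CCN1, ANKRD1, CCN2, DKK1, AJUBA, YAP1, SMAD6, SMAD7, CRIM1, F3, WWTR1 and NUAK2, with differences from 3.71 down to 1.01. Among them YAP1 and WWTR1 encode YAP and TAZ themselves, so not every list member is a target.

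CCN1 encodes a secreted matrix protein and is a standard YAP target. It read 8.43, 8.05 and 7.89 with vector and 12.10, 12.12 and 11.27 on the like-profile arrays, which lay far above every other array. The other knockdown arrays read 8.22, 7.64 and 8.20, within or below the vector range. The difference was 3.71, from 8.12 ± 0.27 to 11.83 ± 0.49 (SD, n = 3 each), and the labelled test over all 6 knockdown arrays did not pass (1.80, SE 1.12, limma adjusted p = 0.305). Its promoter is not among those shown.

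CCN2, the related connective tissue growth factor gene, was higher on all knockdown arrays. It read 11.02, 10.14 and 10.31 with vector, 13.79, 13.81 and 13.40 on the like-profile arrays and 12.82, 12.33 and 12.29 on the others. The 3 sets did not overlap, and over all 6 arrays CCN2 rose by 2.58 (SE 0.41, limma adjusted p = 0.00634). ANKRD1, which encodes an ankyrin-repeat protein, went undetected both with vector and on the other knockdown arrays. ANKRD1 thus passed the detection filter only through the like-profile arrays and could be counted only as higher. It read 8.51, 8.60 and 6.67 on the like-profile arrays against 4.61, 4.6 and 4.90 with vector, and was at least 7.66-fold higher (limma adjusted p = 0.334 in the labelled test). Here and below, this bound sets the mean of the brighter group against the weakest detected signals (detection p under 0.05) on the arrays of the dimmer group.

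DKK1, a secreted inhibitor of Wnt signalling, lay on opposite sides of vector on the 2 sets of knockdown arrays. It read 9.57, 9.33 and 9.04 with vector, 12.02, 11.99 and 11.45 on the like-profile arrays and 5.97, 5.79 and 5.91 on the others. The difference from vector was 2.51 for the like-profile arrays and -3.42 for the others, and the labelled test gave -0.46 (SE 1.67, limma adjusted p = 0.882). The lower gene of the list was SP5, a Wnt-responsive transcription factor, which fell by 1.33 over all 6 arrays (SE 0.19, limma adjusted p = 0.00471) and read 6.08, 6.35 and 6.91 against 7.84, 7.91 and 7.77.

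**Figure D2:**
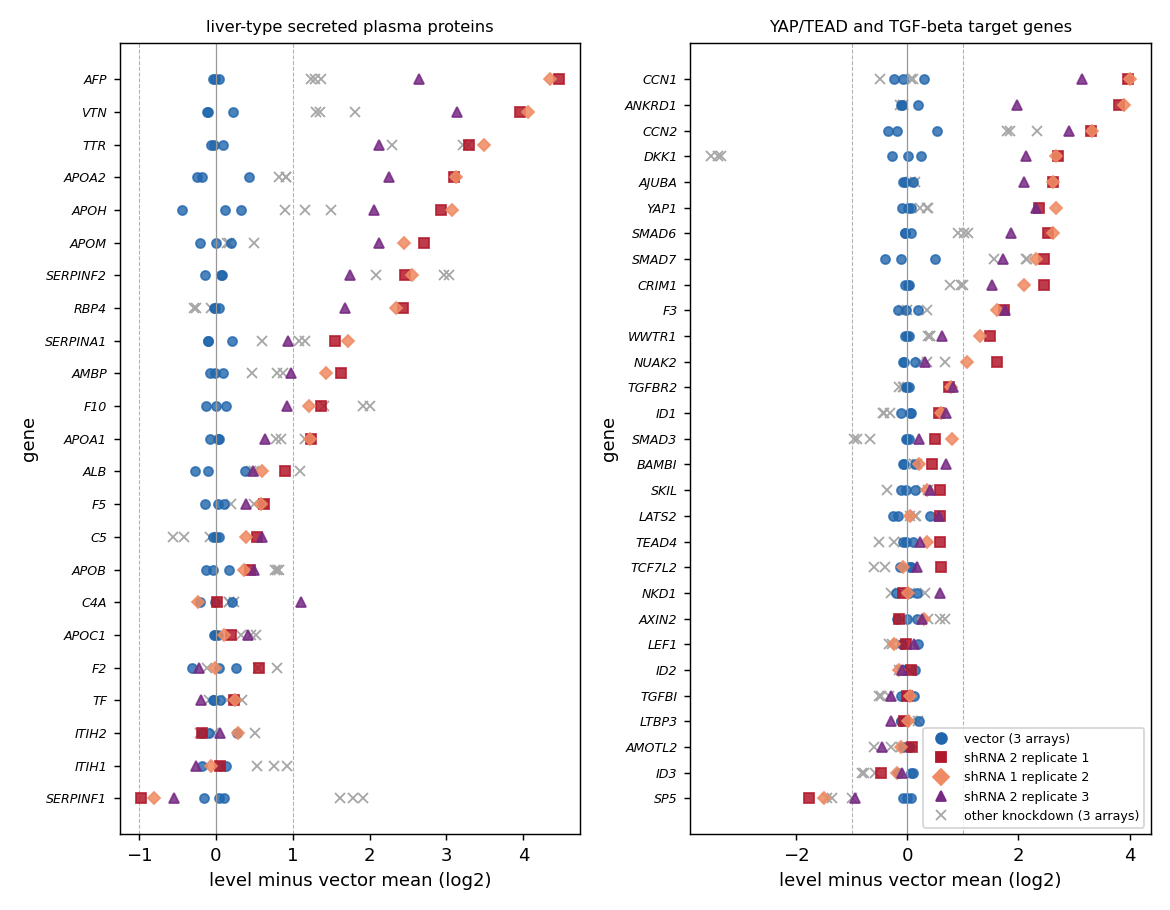
Each row is a gene of the liver-type plasma protein list (left, 23 genes) or of the YAP/TEAD and TGF-beta list (right, 29 genes), and each mark is 1 array's level minus the vector mean (log2). For 12 genes in each panel the like-profile arrays average at least 1 above the vector mean, and DKK1 has the other knockdown arrays far to the left.

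The tested genes of liver-type secreted plasma proteins were higher as a group. Of 23 tested genes 12 were at least 2-fold higher and 0 lower, against 4.29% and 5.03% of all genes. The median difference was 1.03 against 0.00 over all genes. By array the median was 1.25, 1.21 and 0.93, and on the other knockdown arrays it was 0.74. The labelled test called 10 of 23 higher and 0 lower, against 8.54% and 8.09% of all genes. The count on 7 arrays was 17 higher, against 20.7% of all genes. The 12 genes were AFP, VTN, TTR, APOA2, APOH, APOM, SERPINF2, RBP4, SERPINA1, AMBP, F10 and APOA1. Of the 39 listed genes 16 failed the detection filter, and a gene undetected with vector could pass it only through knockdown arrays. The filter thus favours higher genes in this count. Without a filter on dim probes the list's median was 0.17.

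AFP encodes alpha-fetoprotein, the main plasma protein of the fetal liver. It read 5.77, 5.82 and 5.74 with vector and 10.24, 10.12 and 8.42 on the like-profile arrays. All 3 lay above the vector arrays, with shRNA 2 replicate 3 lowest, and the other knockdown arrays read 7.14, 7.02 and 7.06. The difference was 3.81, and the labelled test gave 2.56 (SE 0.81, limma adjusted p = 0.0642). TTR, the carrier of thyroxine and retinol-binding protein, read 8.01, 7.89 and 7.86 with vector and 11.21, 11.41 and 10.04 on the like-profile arrays. The other knockdown arrays read 11.20, 11.13 and 10.21, so they overlapped the like-profile arrays, and TTR rose by 2.95 over all 6 (SE 0.33, limma adjusted p = 0.00206). VTN, an adhesive plasma protein, rose by 2.60 over all 6 arrays (SE 0.66, limma adjusted p = 0.03) and read 8.97, 9.07 and 8.15 against 4.91, 4.89 and 5.23, where 1 vector array detected it. APOA2, an apolipoprotein of high-density lipoprotein, read 10.31, 10.34 and 9.46 against 6.97, 7.03 and 7.64 and had a limma adjusted p of 0.0679.

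Genes for G1/S transit and DNA replication were lower. Of 57 tested genes 18 were at least 2-fold lower and 0 higher, against 5.03% and 4.29% of all genes. The median difference was -0.80 against 0.00 over all genes. By array the median was -0.89, -1.01 and -0.47, and on the other knockdown arrays it was -1.41. There too the replicate 3 array was nearest to vector, with -1.66, -1.63 and -0.91. The labelled test called 32 of 57 lower and 0 higher, against 8.09% and 8.54% of all genes. The count on 7 arrays was 47 lower, against 20.5% of all genes. The study's own question concerns this group, so the list is no independent choice.

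CDC45, a component of the replicative helicase, read 10.49, 10.31 and 10.49 with vector and 8.11, 7.91 and 9.08 on the like-profile arrays. It read 6.57, 6.59 and 7.94 on the other knockdown arrays, and over all 6 it fell by 2.73 (SE 0.51, limma adjusted p = 0.0111). E2F2, an activating E2F factor, read 10.90, 10.81 and 10.71 with vector and 8.47, 8.75 and 9.24 on the like-profile arrays, and fell by 2.16 over all 6 (SE 0.29, limma adjusted p = 0.00372). CDC25A, the phosphatase that activates CDK2, read 9.26, 9.24 and 9.18 against 7.28, 7.01 and 7.63 and fell by 1.74 (SE 0.24, limma adjusted p = 0.00386). Its 2 probes differed in size, at -1.92 and -0.49. CHAF1A, a subunit of the chromatin assembly factor that follows the fork, read 7.48, 7.68 and 7.40 against 5.64, 5.68 and 5.97 and fell by 1.66 (SE 0.18, limma adjusted p = 0.0021). In all 4 genes shRNA 2 replicate 3 was the like-profile array closest to vector.

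Genes for G2/M and mitosis were lower in the same arrays. Of 67 tested genes 24 were at least 2-fold lower and 0 higher, against 5.03% and 4.29% of all genes, with a median difference of -0.79. By array the median was -1.02, -0.97 and -0.41, and it was -1.69 on the other knockdown arrays, which read -2.12, -2.10 and -0.83. The labelled test called 24 of 67 lower and 0 higher, against the same 8.09% and 8.54%. The count on 7 arrays was 55 lower, against 20.5%. KIFC1, a motor that draws spindle poles together, read 9.89, 9.66 and 9.64 with vector and 7.69, 8.15 and 8.36 on the like-profile arrays, and fell by 1.96 over all 6 (SE 0.35, limma adjusted p = 0.00915). TPX2, which activates Aurora A on the spindle, read 10.78, 10.87 and 10.76 against 8.92, 9.05 and 9.60 and fell by 1.62 (SE 0.27, limma adjusted p = 0.00687). DLGAP5 and GTSE1, both microtubule-binding proteins of mitosis, fell by 1.82 and 1.78 (limma adjusted p = 0.0212 and 0.00906). In the list of pRB family genes and cell cycle inhibitors 2 of 21 were at least 2-fold lower and 0 higher. They were SKP2, which marks the inhibitor p27 for breakdown and fell by 1.08 (limma adjusted p = 0.00553), and CDK6, a G1 kinase, which fell by 1.00 (limma adjusted p = 0.00444). The list's median was -0.23, with 1 called higher and 4 lower, and its counts stand beside the same shares of all genes. The gene called higher was CDKN1B, which encodes p27 (0.70, SE 0.15, limma adjusted p = 0.0175). Beside SKP2 and CDK6, RB1 and RBL1 were called lower, by 0.59 and 0.81 (limma adjusted p = 0.039 and 0.0226). CDKN1B, RB1 and RBL1 were named after their values were seen, and their calls were not followed across left-out arrays.

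**Figure D3:**
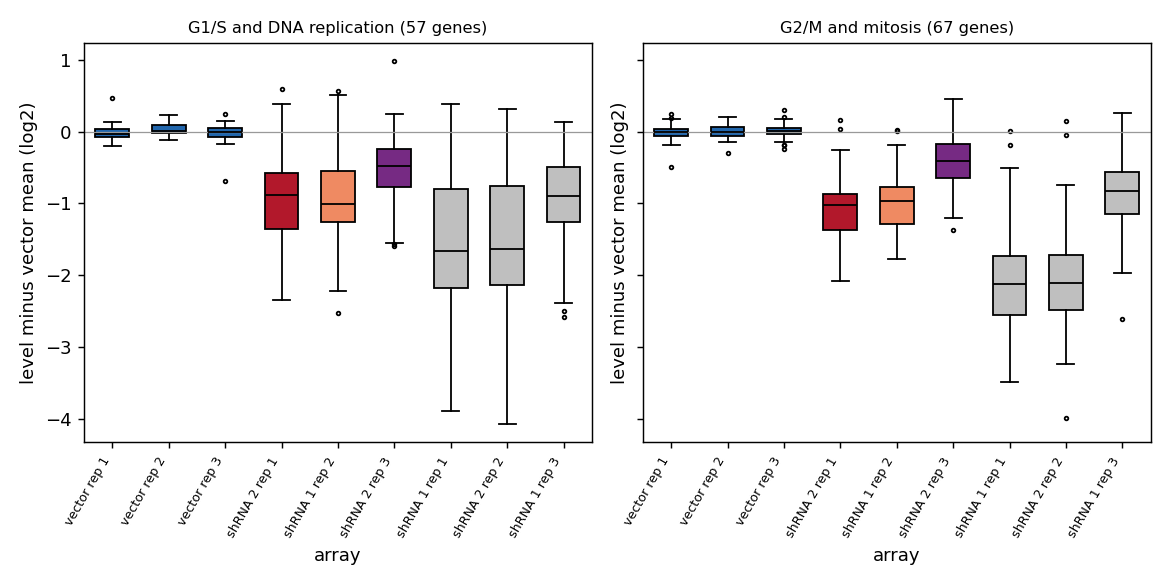
Boxes show, for each array, the median and quartiles of level minus vector mean (log2) over 57 G1/S and DNA replication genes (left) and 67 G2/M and mitosis genes (right), with whiskers to 1.5 times the interquartile range and points beyond. Among the like-profile arrays shRNA 2 replicate 3 sits nearest 0, at medians of -0.47 and -0.41, and among the other knockdown arrays shRNA 1 replicate 3 does, at -0.91 and -0.83.

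In the MYC network and ribosome biogenesis list 6 of 35 genes were at least 2-fold lower and 1 higher, with a median of -0.37. The labelled test called 11 lower and 1 higher. Of all genes 5.03% were lower and 4.29% higher at 2-fold, and 8.09% were called lower and 8.54% higher. MYC itself read 10.02, 9.88 and 9.84 with vector and 8.52, 8.44 and 8.92 on the like-profile arrays, and fell by 1.09 over all 6 (SE 0.19, limma adjusted p = 0.00953). SRM, the spermidine synthase, fell by 1.87 (SE 0.23, limma adjusted p = 0.00265) and read 7.96, 7.86 and 8.09 against 10.11, 10.17 and 10.29. MXD4, a MYC antagonist, was the higher gene and rose by 1.36 (SE 0.17, limma adjusted p = 0.00259). The antagonist MXD3 read 4.72, 4.98 and 5.59 against 6.50, 6.84 and 6.77 and was called lower (limma adjusted p = 0.00275). It was detected on 2 of 3 like-profile arrays and on 0 of the other 3 knockdown arrays, so the size of its fall is not given. NHP2, a protein of snoRNA particles, read 8.65, 8.87 and 8.95 on the like-profile arrays, 10.25, 10.28 and 10.17 with vector and 9.92, 10.09 and 10.00 on the others (limma adjusted p = 0.145).

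The list of endocrine and foregut transcription factors held 6 of 21 genes at least 2-fold lower and 0 higher, with a median of -0.51. Over all genes these shares were 5.03% and 4.29%. The labelled test called 7 lower and 1 higher, against 8.09% and 8.54% of all genes. NKX2-2, a determinant of endocrine cells in pancreas and gut, read 10.89, 11.18 and 11.04 with vector and 8.30, 8.55 and 9.0 on the like-profile arrays. It fell by 2.09 over all 6 knockdown arrays (SE 0.26, limma adjusted p = 0.00275). MYB fell by 2.14 (SE 0.40, limma adjusted p = 0.0111), and INSM1, a zinc-finger factor of neuroendocrine cells, fell by 1.00 (SE 0.15, limma adjusted p = 0.00553). SOX2 read 8.33, 8.57 and 9.42 on the like-profile arrays against 10.23, 10.26 and 10.31 with vector, whereas the other knockdown arrays read 10.48, 10.44 and 10.61 (limma adjusted p = 0.464). SOX9 read 6.99, 8.49 and 8.48 against 9.10, 9.45 and 9.42, with shRNA 2 replicate 1 well below the other 2 (limma adjusted p = 0.0515).

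Serotonin genes lay on both sides of vector. Of 10 tested genes 3 were at least 2-fold lower and 1 higher, against 5.03% and 4.29% of all genes, with a median of 0.24. The labelled test called 1 lower and 3 higher, against 8.09% and 8.54% of all genes. TPH1, the rate-limiting enzyme of serotonin synthesis outside the brain, read 9.88, 9.73 and 9.59 with vector and 7.65, 7.45 and 8.36 on the like-profile arrays. The other knockdown arrays read 9.80, 9.54 and 9.62, inside or beside the vector range, and the labelled test did not pass (-0.99, SE 0.56, limma adjusted p = 0.259). SLC18A1, the vesicular transporter that loads serotonin into vesicles, fell by 2.06 over all 6 arrays (SE 0.18, limma adjusted p = 0.00127) and read 6.74, 6.71 and 7.33 against 9.32, 9.10 and 8.90. GCH1, which makes the cofactor of tryptophan hydroxylase, read 8.70, 8.39 and 8.99 against 9.76, 9.78 and 9.66 (limma adjusted p = 0.554). Its 3 probes ranged from -1.04 to -0.36. HTR3A, a subunit of the serotonin-gated channel, rose by 2.21 (SE 0.21, limma adjusted p = 0.00152) and read 9.09, 9.21 and 8.62 against 6.58, 6.67 and 6.42.

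Among neuroendocrine secretory products 4 of 19 genes were at least 2-fold higher and 1 lower, against 4.29% and 5.03% of all genes. The labelled test called 4 higher and 3 lower, against 8.54% and 8.09% of all genes. The list's median was 0.02, and it changed sign under 3 of the processing alternatives. GHRL, the ghrelin gene, read 6.10, 6.14 and 6.33 with vector and 9.27, 9.27 and 8.54 on the like-profile arrays, and rose by 2.55 over all 6 (SE 0.26, limma adjusted p = 0.00164). SSTR2, the somatostatin receptor that somatostatin analogues bind, rose by 1.08 (SE 0.21, limma adjusted p = 0.0125), and SCG5, a chaperone of prohormone convertase, rose by 1.53 (SE 0.39, limma adjusted p = 0.0312). SST, somatostatin itself, read 8.07, 7.81 and 7.06 against 7.06, 6.75 and 5.54 and was spread widely with vector (limma adjusted p = 0.063). The granin genes CHGA and CHGB differed from vector by 0.13 and 0.00 (limma adjusted p = 0.426 and 0.652). The granin genes SCG2 and SCG3 differed by -0.95 and -0.56 with no overlap (limma adjusted p = 0.119 and 0.403), SCG2 reading 13.53, 13.29 and 13.76 against 14.50, 14.43 and 14.50. SCG3 was named after its values were seen.

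**Figure D4:**
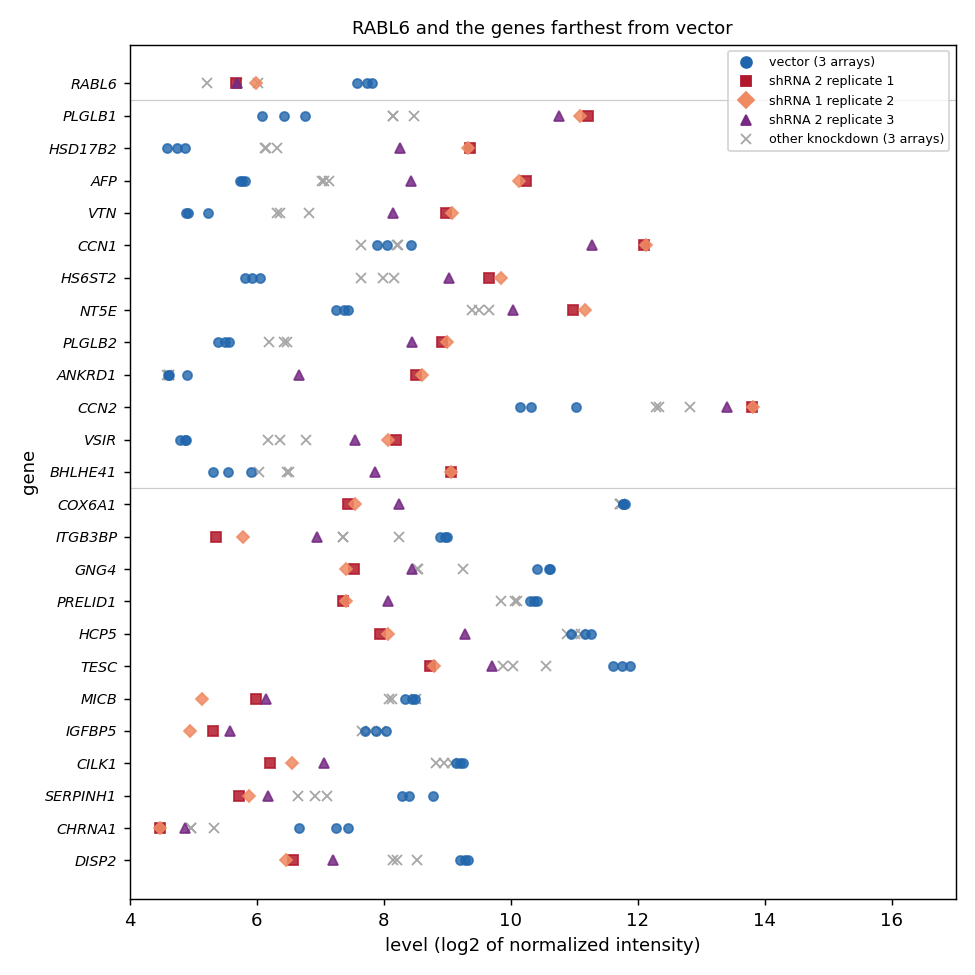
Levels (log2 of normalized intensity) of RABL6, the 12 genes farthest above vector and the 12 farthest below are shown on all 9 arrays. For COX6A1 the like-profile arrays lie at 7.43 to 8.23 while the vector and other knockdown arrays lie at 11.72 to 11.80.

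Of the 12 genes farthest above vector, HSD17B2, an enzyme that inactivates estradiol and testosterone, was not detected on the vector arrays. It read 4.59, 4.87 and 4.74 there and 9.36, 9.32 and 8.26 on the like-profile arrays, at least 15.9-fold higher. HSD17B2 thus passed the detection filter only through knockdown arrays and could be counted or called only as higher. Within that limit the labelled test passed (limma adjusted p = 0.0462). PLGLB1 had the difference of 4.59 and was called (limma adjusted p = 0.0284). But PLGLB2, a near-identical copy, had 3.30, the 3 PLGLB1 probes ranged from 1.77 to 4.59, and the copies may share signal. HS6ST2, a heparan sulfate 6-O-sulfotransferase, rose by 2.79 (SE 0.50, limma adjusted p = 0.00925) and read 9.65, 9.85 and 9.03 against 5.92, 5.82 and 6.05. NT5E, the CD73 ectoenzyme that makes adenosine, rose by 2.77 (SE 0.43, limma adjusted p = 0.00562) and read 10.98, 11.16 and 10.04 against 7.43, 7.37 and 7.25. VSIR, an immune checkpoint receptor, was undetected with vector and at least 7.67-fold higher (limma adjusted p = 0.0135). VSIR too passed the detection filter only through knockdown arrays and could be counted or called only as higher. BHLHE41, a circadian repressor, read 9.05, 9.05 and 7.86 against 5.55, 5.90 and 5.31 (limma adjusted p = 0.103).

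COX6A1, a subunit of cytochrome c oxidase, was the gene farthest below vector. It read 11.80, 11.76 and 11.76 with vector, 7.43, 7.54 and 8.23 on the like-profile arrays and 11.72, 11.74 and 11.72 on the other knockdown arrays. The difference was -4.04 for the like-profile arrays and -0.05 for the others, it was read by 1 kept probe, and the labelled test did not pass (limma adjusted p = 0.253). It was also the only 1 of 36 oxidative phosphorylation genes at least 2-fold apart in either direction. The labelled test called 6 genes of that list higher and 0 lower, against 8.54% and 8.09% of all genes. The list's median was 0.07. That median fell below 0 with median centring.

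PRELID1, a carrier of phosphatidic acid in mitochondria, had the same shape, with 7.36, 7.41 and 8.07 against 10.30, 10.41 and 10.37 and the other knockdown arrays at 10.07, 10.09 and 9.85. HCP5, a non-coding RNA of the MHC region, read 7.94, 8.07 and 9.27 against 10.95, 11.17 and 11.26, with 10.88, 11.10 and 11.01 on the others. MICB, a stress ligand of the receptor NKG2D, read 5.99, 5.14 and 6.15 against 8.49, 8.33 and 8.45. IGFBP5, a binding protein of insulin-like growth factors, read 5.31, 4.95 and 5.58 against 8.03, 7.87 and 7.71 and was detected on 2 of 3 like-profile arrays. CILK1, a ciliary kinase, read 6.21, 6.55 and 7.05 against 9.20, 9.24 and 9.13. None of these 5 genes passed the labelled test, with limma adjusted p from 0.168 to 0.255. Their gap between the sets of knockdown arrays widens the spread within each labelled group, which made a call unlikely.

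The 6 remaining genes far below vector passed it. ITGB3BP, a centromere protein, fell by 2.11 (SE 0.56, limma adjusted p = 0.0357) and varied among the like-profile arrays at 5.36, 5.78 and 6.94 against 8.99, 8.89 and 8.96. GNG4, a G protein gamma subunit, fell by 2.26 (limma adjusted p = 0.00725), TESC, a calcium-binding protein, by 2.13 (limma adjusted p = 0.0105), and SERPINH1, the collagen chaperone, by 2.08 (limma adjusted p = 0.00614). DISP2 fell by 1.75 (limma adjusted p = 0.0373). CHRNA1, the muscle-type nicotinic receptor subunit, was undetected on the like-profile arrays at 4.47, 4.47 and 4.87 against 7.44, 7.25 and 6.66, at least 4.48-fold lower. Over all 6 arrays CHRNA1 fell by 2.28 (SE 0.24, limma adjusted p = 0.00186), a size that rests partly on these undetected values.

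Some genes lay at least 2-fold from vector on the like-profile arrays and on 1 side of all other 6 arrays. The 6 farthest from the other knockdown arrays in each direction are named, with values side by side and no test of that gap. On the higher side, beside CCN1, ANKRD1 and DKK1, COLEC12, a scavenger receptor, read 9.01, 9.20 and 8.38 against 6.15, 6.24 and 6.27 with vector and 5.47, 5.37 and 5.52 on the others. TNFRSF12A, the TWEAK receptor, read 11.75, 11.90 and 10.96 against 9.05, 9.21 and 9.08, with 7.96, 8.10 and 8.09 on the others. BATF3, a leucine zipper factor, read 8.90, 9.0 and 8.46 against 7.64, 7.56 and 7.31, with 5.67, 5.36 and 5.66 on the others. The vector arrays lay between the 2 sets of knockdown arrays for all 3 genes.

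On the lower side the same position of vector was seen beside COX6A1. AUH, an RNA-binding mitochondrial hydratase of leucine breakdown, read 5.71, 5.92 and 5.84 against 8.20, 8.19 and 8.25, with 9.69, 9.72 and 9.39 on the others. HEPACAM2 read 6.91, 7.15 and 8.12 against 9.71, 9.70 and 9.76, with 11.52, 11.52 and 11.25 on the others. VSTM2L and NELL1 differed from vector by -1.69 and -1.22 on the like-profile arrays and by 3.15 and 3.40 on the others. KCNMB2, a subunit of the BK potassium channel, differed by -1.64 and 2.27, but its other probe gave -0.02 for the like-profile arrays. In the labelled test none of these 12 genes passed, with limma adjusted p from 0.253 to 0.884. Each hairpin label holds arrays of both sets, so the test could hardly call genes picked by that gap.

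Antigen presentation genes lay on both sides of vector on the like-profile arrays, more of them below, and none was called lower by the labelled test. Of 18 tested genes 6 were at least 2-fold lower and 1 higher, against 5.03% and 4.29% of all genes. The list's median was -0.24, against 0.37 on the other knockdown arrays. At any size 9 lay below vector without overlap and 3 above, against 28.6% and 28.7% of all genes. The labelled test called 0 lower and 3 higher, against 8.09% and 8.54% of all genes. PSMB9, an immunoproteasome subunit, read 5.38, 4.99 and 5.90 against 6.69, 7.05 and 7.28, with 7.97, 8.06 and 8.10 on the others. The difference was -1.58 for this PSMB9 probe and -0.21 for its other probe. PSMB8, its partner subunit, read 8.74, 8.70 and 9.21 against 10.16, 10.21 and 10.20, with 10.86, 10.74 and 10.79 on the others. HLA-B, a class I heavy chain whose probe may also read its relatives, read 9.90, 9.88 and 11.00 against 11.41, 11.54 and 11.74, and shRNA 2 replicate 3 lay nearest to vector. HLA-DRA, a class II chain, rose by 1.21 (SE 0.19, limma adjusted p = 0.00557), though its other probe gave -0.07. In the interferon response list 2 of 36 genes were lower, OAS3 and HERC6, and 0 higher, with 1 called in each direction. These interferon counts lie near or below the same shares of all genes.

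Matrix, adhesion and cytoskeleton genes held 11 of 40 at least 2-fold higher and 1 lower, against 4.29% and 5.03% of all genes, with a median of 0.30. The labelled test called 8 higher and 1 lower, against 8.54% and 8.09% of all genes. THBS1, the matrix protein thrombospondin, read 11.62, 11.63 and 10.99 against 9.23, 9.40 and 9.34, with 9.44, 9.50 and 9.50 on the others (limma adjusted p = 0.214). ITGA1, a collagen-binding integrin chain, read 10.22, 9.77 and 9.83 against 8.81, 8.56 and 8.65 (limma adjusted p = 0.117). TIMP2, a metalloproteinase inhibitor, read 9.40, 9.61 and 9.16 against 8.01, 7.92 and 8.31, with 7.12, 7.21 and 7.05 on the others (limma adjusted p = 0.883). COL4A1, a basement membrane collagen, was undetected on the like-profile arrays and at least 2.94-fold lower than with vector (limma adjusted p = 0.384). In the heparan sulfate list 3 of 20 were higher and 3 lower, beside the same shares of all genes at 2-fold. SDC2 rose by 1.49 (limma adjusted p = 0.0014) and SDC4 fell by 1.28 (limma adjusted p = 0.00694), both being syndecan core proteins.

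Cholesterol and fatty acid synthesis genes held 5 of 28 at least 2-fold lower and 1 higher, against 5.03% and 4.29% of all genes. The list's median was -0.38, against 0.10 on the other knockdown arrays. The labelled test called 5 lower and 3 higher, against 8.09% and 8.54% of all genes. DHCR7, the last enzyme of cholesterol synthesis, fell by 1.89 over all 6 arrays (SE 0.16, limma adjusted p = 0.000931) and read 7.86, 8.02 and 8.26 against 9.94, 9.97 and 9.59. TMEM97 fell by 1.41 (limma adjusted p = 0.0314), although its other probe was 0.47 above vector, and INSIG2, a brake on sterol synthesis, rose by 1.36 (SE 0.15, limma adjusted p = 0.00188).

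**Figure D5:**
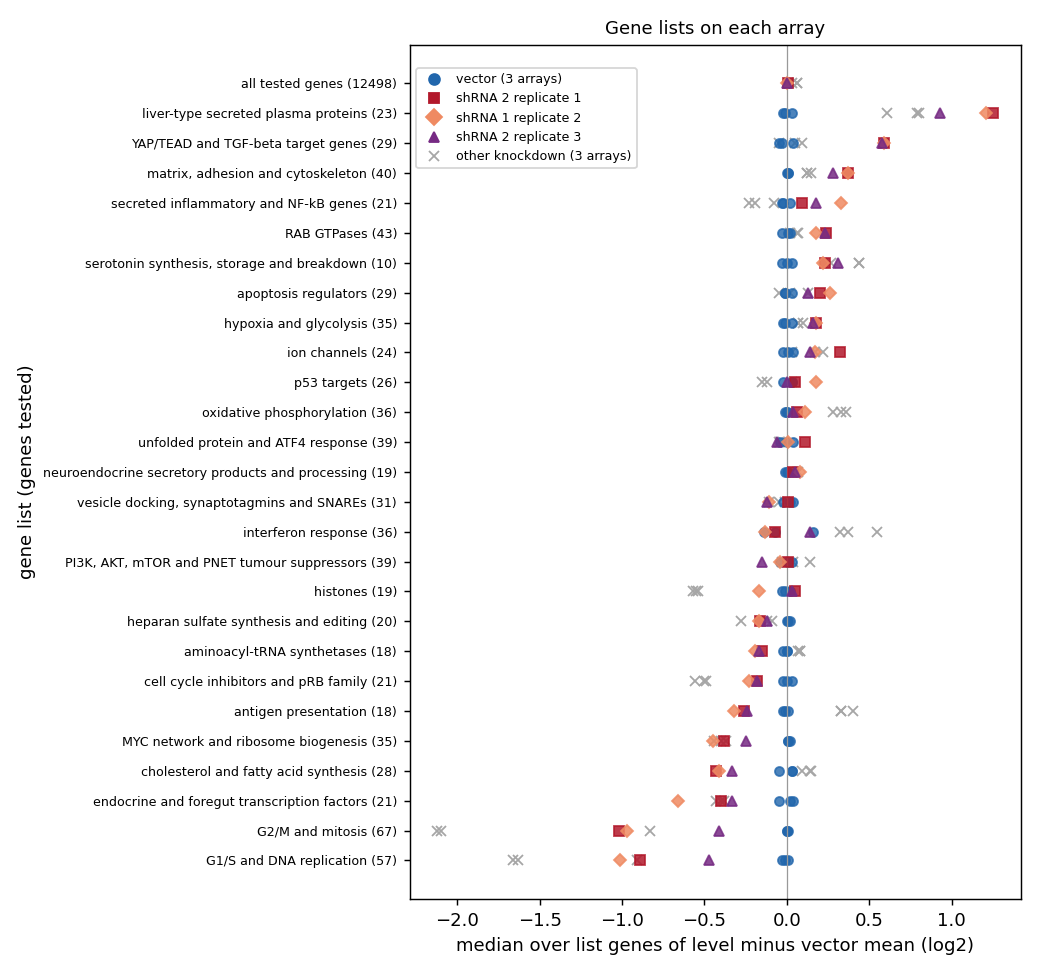
Each row is 1 of 26 gene lists, or all 12498 tested genes, and each mark is the median over the list's tested genes of level minus vector mean (log2) on 1 array. The liver-type, YAP/TEAD and TGF-beta and matrix lists lie at the higher end for the like-profile arrays, and the G1/S and G2/M lists at the lower end.

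Genes that varied most among the like-profile arrays while the vector arrays stayed within 0.5 were AFP, ITGB3BP, DHRS2, GNRH2, SOX9, CXCL1, KIF18A and MBNL3. DHRS2, a short-chain dehydrogenase, read 6.48, 6.68 and 8.74 against 9.33, 9.20 and 9.58, and fell by 1.91 over all 6 arrays (SE 0.53, limma adjusted p = 0.0422). GNRH2, a gonadotropin-releasing hormone gene, read 8.64, 8.65 and 10.21 against 11.06, 11.25 and 11.31. CXCL1, a chemokine for neutrophils, read 6.71, 7.37 and 8.20 against 8.41, 8.73 and 8.80, with 10.37, 10.33 and 10.29 on the others. KIF18A, a mitotic kinesin, read 5.32, 6.51 and 6.95 against 7.39, 7.48 and 7.33 and fell by 1.35 (SE 0.39, limma adjusted p = 0.0481). MBNL3, a splicing regulator, read 7.05, 6.43 and 7.88 against 8.31, 8.0 and 8.21. In all of them but SOX9 the like-profile array closest to vector was shRNA 2 replicate 3, and for SOX9 shRNA 1 replicate 2 lay beside it.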

How the data were processed

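Expression was measured on 9 Illumina HumanHT-12 v4 arrays, 1 per sample, in groups taken from the sample titles. The deposited table gives signal intensity per probe, neither background-subtracted nor normalized judging by its values, and a detection p-value per probe and array. Per the submitters' processing notes the software was GenomeStudio (version not stated). The authors' deposited value table of linear intensity was used as an alternative, and how it was normalized is not stated in the labels.

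Intensities were background-corrected with nec (offset 16), quantile normalized and put on the log2 scale in limma 3.58.1 (R 4.3.3), which understates fold changes of dim genes. Kept were 22011 probes that had detection p-values under 0.05 on 3 or more arrays, of which 16744 had 1 gene symbol in the platform annotation and 5267 had none. Where a gene had several kept probes (3358 genes), the probe with the highest mean was used, giving 12498 genes. Of 1028 list entries 808 could be tested, 63 lacked a probe and 157 failed the detection filter.

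The array group, the 26 gene lists, the 6 marker lists and the alternatives were chosen with earlier results of these data known. Named genes were RABL6, the 12 farthest from vector in each direction, the 6 in each direction farthest from the other knockdown arrays, the 8 with the widest range, up to 4 members of each list past 2-fold plus 2 in the opposite direction, and the markers. Other members of a list were named after their values were seen, to account for a count. Steps were tested on simulated data in which all knockdown arrays shifted alike. A gap between the sets of knockdown arrays was not simulated, so the labelled test was not checked under it. Tests used lmFit and eBayes on all 9 arrays. The alternatives covered background, normalization, dim-probe filter, probe choice, fold threshold, model settings, the replicate block and leaving out arrays. The labels do not say that a replicate number marks a shared set. Whether same-numbered arrays deviate together was checked around the labelled group means and, after the data were seen, around the means of vector, like-profile and other knockdown arrays.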

Additional observations from a re-analysis of the deposited data

Results flagged for a closer look

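Among the 5267 kept probes that have no gene name in the annotation used here, 209 (3.97%) lay at least 2-fold from vector on the like-profile arrays without overlap. These probes stand outside the gene comparisons, and 89 of them were higher and 120 lower. The probe farthest from vector, ILMN_1701653, read 12.67, 12.77 and 12.80 with vector, 9.02, 9.47 and 10.64 on the like-profile arrays and 13.50, 13.50 and 13.64 on the other knockdown arrays. ILMN_1815203 read 8.93, 8.83 and 8.81 with vector and 11.79, 11.78 and 11.55 on the like-profile arrays. Its values on the other knockdown arrays, 11.36, 11.39 and 11.21, also lay above vector.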

How the results depend on the processing

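The count of 1165 genes at least 2-fold from vector was 3209 at 1.5-fold, 448 without background correction and 751 with an offset of 50, and 1035 to 1497 when each array was left out in turn. The RABL6 difference of -1.92 was -0.99 without background correction and -1.44 with an offset of 50. Omitted background correction and a larger offset compress the differences of dim genes, and their part in these changes was not tested. For both shRNAs by label, 2078 calls became 5587 with array weights and 5152 on the 7 arrays, and for shRNA 2 by label 1085 became 4041 and 4420, and the cause was not tested. Left-out arrays gave 489 to 2582 calls for both shRNAs and 119 to 1115 for shRNA 2, where vector replicates 1, 2 and 3 gave 119, 119 and 126 and shRNA 2 replicate 1 gave 184. Same-numbered samples had deviations from their labelled group means that correlated at -0.89 to 0.15. These groups mix both profiles, and around the means of vector, like-profile and other knockdown arrays the correlations were 0.11 to 0.32, so the numbers may pair the samples. The replicate block gave 1105 and 282 calls. Median centring moved the median of all genes by -0.09 and the share of higher genes among the 2-fold genes from 46% to 31.2%, and among those called for both shRNAs from 51.3% to 30%. Of 62 named genes called in the labelled test, the number lost was 21, 22 and 19 on leaving out vector replicate 1, 2 and 3, then 9 for shRNA 1 replicate 1, 10 for shRNA 2 replicate 1 and 7 under the block. Without any other single array 1 to 3 of them lost it. No called value of a named gene turned its direction, but the calls for both shRNAs turned from 1067 higher and 1011 lower to 613 and 1432 with median centring and 981 and 1138 with cyclic loess. Medians of 8 other lists, all within 0.17 of 0, changed sign or reached 0 in 1 to 5 of 16 settings. The medians of the YAP/TEAD and TGF-beta, liver-type, matrix, G1/S, G2/M, MYC, cholesterol, antigen presentation and endocrine factor lists kept their sign in all 16. Detection on 3 of 9 arrays, signal near background and 3 arrays a group limit what can be seen.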

Other observations

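Shares of all genes to set beside the counts here are 4.29% higher and 5.03% lower at 2-fold, and 8.54% called higher and 8.09% lower by the labelled test. Of 29 apoptosis regulators 2 were at least 2-fold higher and 1 lower on the like-profile arrays, a share near that of all genes, with a median of 0.21, and the labelled test called 4 higher and 1 lower. PMAIP1, which encodes the BH3-only protein NOXA, read 8.13, 7.92 and 8.19 with vector and 10.81, 10.61 and 10.29 on the like-profile arrays, with 9.05, 8.72 and 9.01 on the others (limma adjusted p = 0.0515). BAK1, a pore-forming death effector, read 7.73, 8.06 and 7.23 against 6.43, 6.63 and 6.57, while the others read 6.40, 5.57 and 5.74 (limma adjusted p = 0.806). CASP2, an initiator caspase, fell by 1.60 over all 6 knockdown arrays (SE 0.24, limma adjusted p = 0.00485). Of 26 p53 targets 2 were higher and 0 lower, with a median of 0.09 and 4 called higher and 2 lower. Of those 2, PHLDA3 passed the detection filter only through the like-profile arrays and could be counted only as higher. Among 39 genes of PI3K, AKT and mTOR signalling and tumour suppressors 1 was higher and 2 lower. AKT1 fell by 1.61 (SE 0.24, limma adjusted p = 0.00542), though its 3 probes ranged from -1.44 to 0.58 on the like-profile arrays. MLST8, a subunit of both mTOR complexes, read 6.79, 6.63 and 7.20 against 8.36, 8.57 and 8.43, with 9.06, 9.35 and 9.17 on the others (limma adjusted p = 0.715).

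RAB GTPases, regulators of vesicle traffic, held 3 of 43 genes at least 2-fold higher and 3 lower, also near the share of all genes, with a median of 0.26 and 9 called higher and 2 lower. RAB31 read 8.39, 8.28 and 7.41 on the like-profile arrays, 5.53, 5.70 and 5.75 with vector and 5.53, 5.93 and 5.50 on the others (limma adjusted p = 0.279). RAB27B, a factor of granule docking, read 7.83, 8.04 and 7.83 against 6.06, 5.93 and 5.95 (limma adjusted p = 0.0523). RAB25 read 9.24, 9.24 and 9.53 against 10.83, 10.84 and 10.93, with 10.96, 10.93 and 10.84 on the others (limma adjusted p = 0.301). RAB40B rose by 1.43 over all 6 arrays (SE 0.15, limma adjusted p = 0.00186). Among 31 vesicle docking genes 2 were higher and 1 lower, and SYT11, a synaptotagmin, rose by 2.32 (SE 0.42, limma adjusted p = 0.00953).

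The remaining lists are given as counts past 2-fold, from which nothing is read beside the shares of all genes. These were 2 higher and 1 lower of 24 ion channel genes, 3 and 2 of 39 unfolded protein and ATF4 genes, 1 and 1 of 35 hypoxia and glycolysis genes, 0 and 1 of 18 aminoacyl-tRNA synthetases, 1 and 1 of 21 secreted inflammatory genes and 2 and 0 of 19 histone genes. SLC7A5, a carrier of large neutral amino acids, fell by 1.56 (SE 0.12, limma adjusted p = 0.000931), and ANGPTL4, an inhibitor of lipoprotein lipase, rose by 1.28 (SE 0.10, limma adjusted p = 0.000931). The 3 ANGPTL4 probes ranged from 0.41 to 1.3 on the like-profile arrays. FARSA, a phenylalanyl-tRNA synthetase subunit, fell by 1.59 (SE 0.15, limma adjusted p = 0.0014). The histone gene H2BC4 read 8.82, 8.73 and 7.99 against 7.17, 6.53 and 6.78, with 6.84, 6.71 and 6.73 on the others (limma adjusted p = 0.343).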
